A study of Mus musculus with 17 samples.

Results

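The miR-297, miR-466, miR-467 and miR-669 families are groups of closely related mouse miRNAs, most of whose genes sit side by side in the introns of Sfmbt2. Members were taken by name from the deposited table, as every row named for 1 of the 4 families with any letter and any arm, and 19 of 1487 listed small RNAs matched. The miR-466 family had 8 rows, miR-669 had 6, miR-467 had 5, and no row carried a miR-297 name. Of the 19, 11 are named as 5p arms, 5 as 3p arms and 3 carry no arm in the name.

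The libraries were small RNA libraries of exosomes precipitated from mouse feces, 10 from the start-point and 7 from the end-point of the study. Every mouse carried the same deletion of interleukin 10 (IL-10 KO, C57BL/6J background), a strain that develops bowel inflammation, so both groups share that allele and wild-type libraries were not analysed here. Mice were delivered at an age of 4 weeks, and the labels used here give no age for either time point. The start-point group held 7 males and 3 females, and the end-point group 5 male and 2 female libraries. The 17 libraries came from 10 mice, 6 of them sampled at both time points, and end-point libraries 1 and 2 both carry the label of mouse 1. Mouse 2 has a start-point library and no end-point library, and whether the repeated label is an error is not known, so counts of mice and fits by mouse rest on the labels as given.

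A miRNA is cut from a hairpin transcript, and either strand of the hairpin stem, the 5p or the 3p arm, can be kept by an Argonaute protein. Bases 2 to 8 of the kept strand, the seed, do most of the pairing with target messenger RNAs. Sfmbt2 encodes a Polycomb-group protein and is expressed from the paternal allele in the placenta and its precursors, and its intronic miRNA cluster is known from rodents, where placenta and embryonic stem cells express it. The hairpins arose by repeated duplication of units rich in alternating UG and CA, so many mature sequences differ little from each other.

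The RefSeq table (GRCm38.p6) places 71 of the 81 hairpin genes of the 4 families inside Sfmbt2, on chromosome 2 at 10370440 to 10595253, where they span 51.6 kb. All 19 members matched a RefSeq gene. The hairpins of 15 members lie inside Sfmbt2 and overlap no exon of it in the GENCODE vM21 annotation, so they are intronic. The other 4 are not in Sfmbt2: miR-466q lies in an intron of Tnik and miR-669n in an intron of Slc30a7, both on chromosome 3, and both arms of miR-466i lie in an intron of Cdk13 on chromosome 13. The name of the cluster therefore covers 15 of the 19 members only. Most members have 1 hairpin gene, while miR-467a-5p has 10, and miR-466c-5p and miR-669m-3p have 2 each, so reads of these 3 cannot be assigned to a single gene.

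Mature sequences matched for 3 of the 19 members, all of them outside Sfmbt2. They are shown because they display the alternating repeat described above, which other listed miRNAs carry as well, and because miR-466q is the most abundant member. They come from RefSeq (GRCm38.p6), run 5′ to 3′, and carry the seed in capitals.
miR-466q: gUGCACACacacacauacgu
miR-466i-3p: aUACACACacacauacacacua
miR-669n: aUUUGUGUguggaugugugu
The first lies at chr3:28419988-28420007, the second at chr13:17747552-17747573 and the third at chr3:115979905-115979924, all on the plus strand. That is the strand of Tnik and the opposite strand of Cdk13 and Slc30a7. In miR-466q, 12 of its 19 neighbouring base steps are AC or CA, and in miR-466i-3p 15 of 21 are. In miR-669n, 13 of 19 steps are GU or UG. The run ACACAC occurs in 7 of the 1254 listed miRNAs that have a sequence here (0.558%), 2 of them members, and the run GUGUGU in 5 (0.399%), 1 of them a member. GUGUGU is the reverse complement of ACACAC, so the 2 searches cover both strands. The 3 seeds differ from each other, and none of the other listed miRNAs with a sequence shared one of them. For miR-669n the table also gives the hairpin, at chr3:115979902-115979955, shown with the mature strand in capitals to set the repeat of the mature strand beside the opposite arm.
miR-669n hairpin: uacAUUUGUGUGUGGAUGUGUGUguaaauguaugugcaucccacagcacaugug

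Library totals ran from 32320 to 178075 counts. Values are given as CPM, counts scaled to a library total of 1000000, and are not divided by length because mature miRNAs are nearly equally long. A floor of 3 counts corresponds to 16.8 CPM in the deepest library and 92.8 CPM in the shallowest, for counting error only. Fewer than 75000 counts (at most 63858) were found in end-point libraries 1, 3 and 7 and in no start-point library, so shallow depth and the end-point cannot be told apart for these 3. They stood apart from the other 4 end-point libraries in the members as well, and results are therefore given with and without them. The 8 intestinal-epithelium miRNAs in the table, of 9 listed, summed to 3226 to 19689 CPM at the start-point, 2970 to 14832 CPM in the 3 shallow end-point libraries and 5917 to 38181 CPM in the 4 deeper ones. The 5 leukocyte miRNAs in the table, of 7 listed, summed to 911 to 3690, 457 to 689 and 536 to 3234 CPM, and the 3 red cell miRNAs, of 4 listed, to 263 to 1064, 92.8 to 767 and 49.4 to 755 CPM. No marker in the table was at 0 throughout, and the part of these cell types in the results was not tested. In such bulk samples, fewer vesicles from a cell type and less of a miRNA per vesicle cannot be told apart.

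The members together were a small part of each library. Their summed level averaged 4117 ± 2040 CPM over the 10 start-point libraries (SD) and 7550 ± 5571 CPM over the 7 end-point libraries. It ran from 2679 to 9681 CPM at the start-point and from 1764 to 13738 CPM at the end-point, so the end-point range enclosed that of the start-point. By mean level over the 17 libraries, miR-466q ranked 101 of 1487 and was the most abundant member, followed by miR-467c-5p at rank 259 and miR-669h-5p at rank 321. The lowest member, miR-466n-3p, ranked 1485 and was at 0 in 7 start-point and 5 end-point libraries.

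**Figure D1:**
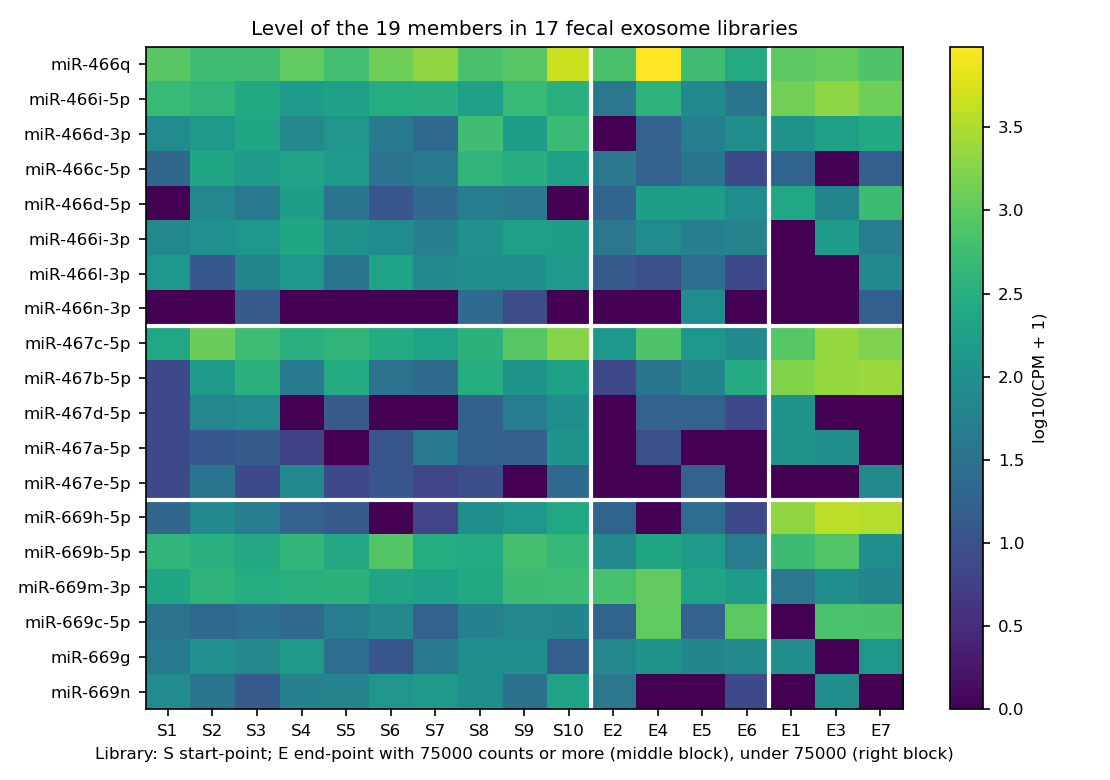
Level of each of the 19 members (rows, by family and then by mean level) in each of the 17 libraries (columns), as log10(CPM + 1), with the 4 deeper end-point libraries in the middle block and the 3 under 75000 counts on the right. miR-669h-5p and miR-467b-5p are bright in the right block, between 1680 and 3899 CPM, and darker in the middle block, at 285 CPM or less.

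The families differed in how evenly their members contributed. In the miR-466 family, miR-466q supplied 61.1% of the summed CPM, and in the miR-467 family miR-467c-5p supplied 56.3%. In the miR-669 family miR-669h-5p supplied the largest pooled share, 36.5%, but it led only in end-point libraries 1, 3 and 7, with 69.6 to 78.4% of the sum. At the start-point miR-669b-5p led in some libraries and miR-669m-3p in the others. In the deeper end-point libraries miR-669m-3p led in 2, 4 and 5, with 43.7 to 75.2%, and miR-669c-5p in 6, with 76.6%. Summed over its members, the miR-466 family averaged 2259 ± 1360 CPM over the 10 start-point libraries (SD) and 3131 ± 3366 CPM over the 7 end-point libraries. Its leader changed with the library, since miR-466i-5p supplied 42.7 to 57.5% of the sum in end-point libraries 1, 3 and 7, and miR-466q led in the other 14. On the log2 scale its mean level differed by -0.0016 (end-point minus start-point) with an SD between libraries of 0.64 and 1.45. The miR-467 family averaged 850 ± 620 CPM and 1877 ± 1950 CPM, a log2 difference of 0.43. The miR-669 family averaged 1008 ± 310 CPM and 2542 ± 1914 CPM, a log2 difference of 0.96. With TMM-scaled library totals these differences were 0.49, 0.92 and 1.45. Over members inside Sfmbt2 only, the miR-466 difference was -0.74. These sums carry no test, because the members were chosen with results of these data known.

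At the end-point the family sums split by depth. In the 3 shallow libraries the miR-467 family held 2776 to 4641 CPM, against 136 to 821 CPM in the 4 deeper ones, with 271 to 2220 CPM at the start-point. The miR-669 family held 2722 to 5600 CPM in the shallow libraries, 473 to 2387 CPM in the deeper ones and 688 to 1514 CPM at the start-point. The miR-466 family held 2667 to 3496 CPM in the shallow libraries, while the deeper ones ran from 556 to 10301 CPM and enclosed them. Without the 3 shallow libraries the log2 differences, on library totals, were -0.44 for miR-466, -1.11 for miR-467 and 0.12 for miR-669. TMM-scaled family differences without these libraries are not given here. For the 2 tested miR-467 members, the TMM-scaled edgeR fit without them gave 0.43 (miR-467b-5p) and 0.25 (miR-467c-5p), neither called. The fall of the miR-467 sum is thus given for 1 scaling only. Within the 6 mice sampled at both time points, the miR-669 sum was higher at the end-point in 5, miR-467 in 4 and miR-466 in 3.

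**Figure D2:**
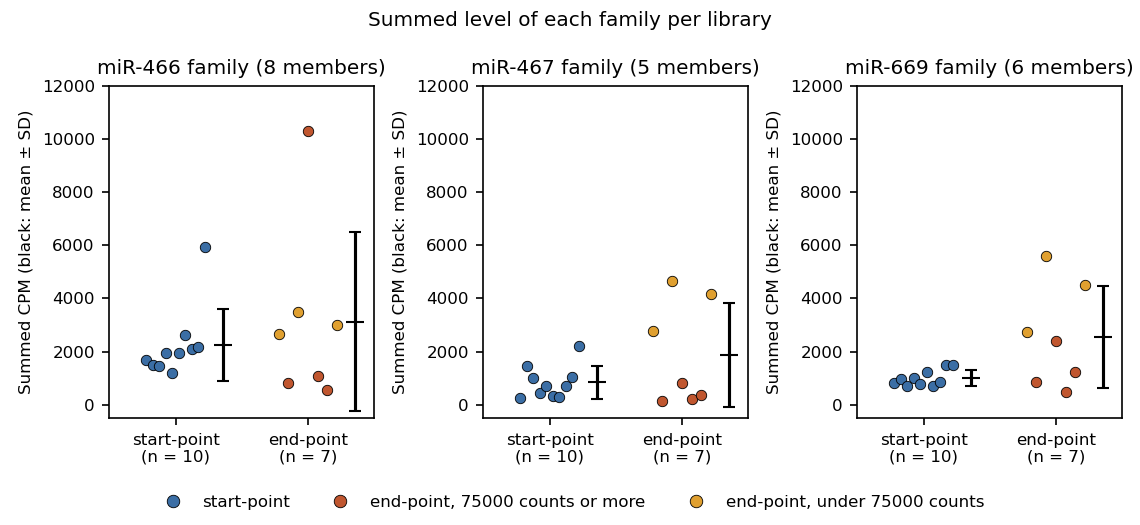
Summed CPM of each family per library (points), with the mean and SD of each time point in black and the end-point libraries coloured by depth. In the miR-467 and miR-669 families the 3 libraries under 75000 counts lie above the 4 deeper end-point libraries, and in the miR-466 family 1 deeper library, at 10301 CPM, is highest.

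Setting the end-point against the start-point asks which small RNAs differ between the time points. The labels used here give no measure of disease, so disease progress, age and other changes over time cannot be told apart. The comparison was made with edgeR's quasi-likelihood test over all 1270 small RNAs that passed the filter on low counts. A small RNA was called at a Benjamini-Hochberg adjusted p under 0.05. Of the 19 members, 12 passed the filter and 4 of these were called. Over all small RNAs tested 33.7% were called (17.4% higher and 16.3% lower at the end-point), so 4 of 12 is a share near the background. miR-669h-5p and miR-467b-5p rose, and miR-466c-5p and miR-466l-3p fell. The median log2 fold change of the 12 was 0.86, beside -0.18 over all tested. It was 0.025 beside -0.099 without the 3 shallow libraries and 0.26 beside -0.33 with the mouse as a block. With the mouse as a block, 0 of the 12 were called in edgeR, where 8.19% of all small RNAs were (3.78% higher and 4.41% lower), and 1 of the 12 had an unadjusted p under 0.05. Without the 3 shallow libraries 3 of the 12 were called higher (miR-466q, miR-669g and miR-669m-3p) and 1 lower (miR-466l-3p), against 34.7% of all tested (19.7% higher and 15% lower). That fit was TMM-scaled and was not repeated on library totals. Start-point and deeper end-point mean CPM were 1323 and 2789 for miR-466q, 64.1 and 81.5 for miR-669g, and 337 and 515 for miR-669m-3p. For none of the 12 were the start-point and end-point ranges separate, which was the case for 5.59% of all tested.

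By family, 2 of 6 tested miR-466 members fell and none rose, 1 of 2 miR-467 members rose, and 1 of 4 miR-669 members rose. By arm, 2 of 6 tested 5p members rose and 1 fell, and 1 of 4 tested 3p members fell. Neither of the 2 tested members without an arm in the name was called. The 4 called members all lie in Sfmbt2, where 9 members were tested, and none of the 3 tested members outside it was called. No difference between families, arms or positions was tested.

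miR-669h-5p, from the hairpin that lies farthest along Sfmbt2 among the members, at 10518155 to 10518279 on chromosome 2, had the smallest p of the 12 tested members. At the start-point it ran from 0 to 245 CPM with a median of 33.3 CPM, or 0 to 34 counts. End-point libraries 1, 3 and 7 held 2064, 3899 and 3523 CPM, and libraries 2, 4, 5 and 6 held 18.5, 0, 25.3 and 6.62 CPM. The 3 shallow libraries thus lay above every start-point library, while the 4 deeper ones lay within the start-point range. Libraries 1 and 2, both labelled mouse 1, were on different sides of this split. Its log2 fold change was 4.58 ± 0.95 (SE), with an edgeR adjusted p of 0.000877, and it was higher at the end-point in 4 of 6 mice. Without the shallow libraries the log2 fold change turned to -0.76 with an edgeR adjusted p of 0.508. With the mouse as a block it was 3.23 ± 1.55 with an edgeR adjusted p of 0.192.

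miR-467b-5p, whose hairpin lies at 10481248 to 10481320 on chromosome 2, followed the same libraries. At the start-point it ran from 6.45 to 351 CPM with a median of 138 CPM. End-point libraries 1, 3 and 7 held 1680, 2259 and 2427 CPM, and libraries 2, 4, 5 and 6 held 6.18, 34.2, 67.5 and 285 CPM. Again the shallow libraries were above all others while 3 of the 4 deeper ones lay within the start-point range and library 2 just below it. The log2 fold change was 2.73 ± 0.73 (SE) and the edgeR adjusted p 0.00612, and it was 0.43 with an adjusted p of 0.665 without the shallow libraries. In male libraries only, and with the mouse as a block (2.31 ± 1.18, edgeR adjusted p of 0.217), it was not called.

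miR-466c-5p, which can come from 2 hairpins in Sfmbt2, fell at the end-point. At the start-point it ran from 19.4 to 400 CPM with a median of 171 CPM, or 3 to 50 counts. End-point libraries 1 to 7 held 18.3, 37.1, 0, 17.1, 33.8, 6.62 and 15.7 CPM, or 0 to 6 counts. All 7 lay below the start-point median and 5 below the lowest start-point library, in shallow and deeper libraries alike, at levels near the smallest the depth can show. The log2 fold change was -2.09 ± 0.65 (SE) and the edgeR adjusted p 0.0136, and 5 of 6 mice were lower. It kept its direction without the shallow libraries, at -1.39 with an edgeR adjusted p of 0.0863, and with the mouse as a block, at -2.19 with 0.192, and was called in neither. The low-count filter asks for about 10 counts at the median library depth, a level that miR-466c-5p reached in no end-point library. It was therefore tested only because of its start-point level, while miR-669c-5p, high in 4 end-point libraries, did not pass the filter.

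miR-466l-3p, from a hairpin at 10516097 to 10516217 on chromosome 2, fell as well. At the start-point it ran from 11.4 to 204 CPM with a median of 98.0 CPM. End-point libraries 1 to 7 held 0, 12.4, 0, 8.56, 25.3, 6.62 and 78.3 CPM, which is 0 to 5 counts. Each end-point library was below the start-point median, and all 6 mice were lower. The log2 fold change was -1.86 ± 0.71 (SE) and the edgeR adjusted p 0.0425. Without the shallow libraries it was -1.76 with an adjusted p of 0.0322, so this was the 1 member called in edgeR both with and without them. Leaving out single libraries kept the call in 6 of 17 fits, with edgeR adjusted p from 0.0214 to 0.0835, and with the mouse as a block the adjusted p was 0.153. This member, too, passed the low-count filter mainly through its start-point libraries.

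**Figure D3:**
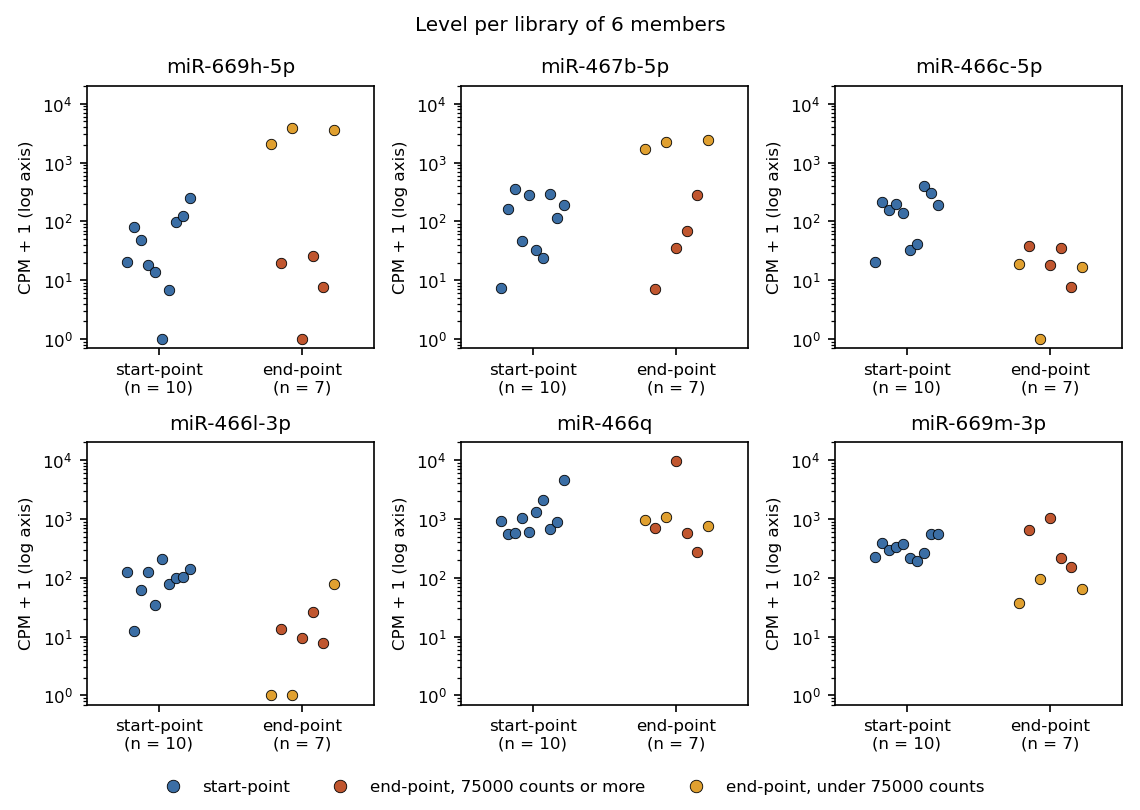
CPM + 1 per library on a log axis for the 4 called members and for miR-466q and miR-669m-3p, with end-point libraries coloured by depth. The 3 shallow libraries lie apart and above the rest for miR-669h-5p and miR-467b-5p, below the 4 deeper ones for miR-669m-3p, and among them for miR-466c-5p, where all 7 end-point libraries are at 37.1 CPM or less.

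The most abundant member, miR-466q, was not called. At the start-point it ran from 548 to 4606 CPM with a median of 900 CPM. It reached 9625 CPM in end-point library 4 and 271 to 1083 CPM in the remaining 6, so 1 library was far above. Library 6, at 271 CPM, lay below the lowest start-point library, and the others lay within the start-point range. The log2 fold change was 1.52 ± 0.68 (SE) and the edgeR adjusted p 0.0828, and without end-point library 4 it was -0.40 with an adjusted p of 0.548. The DESeq2 Wald test gave -0.38. Without the 3 shallow libraries, where library 4 is 1 of 4, it was 2.39 and called, with an edgeR adjusted p of 0.0141.

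miR-467c-5p, the leading miR-467 member, and miR-466i-5p were not called either, though at the end-point both were higher in each shallow library than in each deeper one. Levels of miR-467c-5p were 204 to 1802 CPM at the start-point, 877, 2290 and 1660 CPM in end-point libraries 1, 3 and 7, and 79.4 to 761 CPM in the other 4. Its log2 fold change was 0.79 ± 0.49 (SE) with an edgeR adjusted p of 0.213, and was 0.25 without the shallow libraries. Levels of miR-466i-5p were 152 to 484 CPM at the start-point, 1352, 2011 and 1284 CPM in the same 3 libraries and 33.1 to 376 CPM in the deeper ones. Its log2 fold change of 1.21 ± 0.53 (SE) had an edgeR adjusted p of 0.0790 and was -0.077 without the shallow libraries. The start-point libraries lay between the 2 sets of end-point libraries for miR-466i-5p, apart from an overlap with the deeper library 4.

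Over the end-point libraries, 5 of the 12 tested members were higher in each of the 3 shallow libraries than in each of the 4 deeper ones, against 23% of all small RNAs tested. They were miR-669h-5p, miR-467b-5p, miR-467c-5p, miR-466i-5p and miR-466d-3p. One of the 12, miR-669m-3p, was lower in each shallow library, against 9.69% of all tested. This split was noticed in the data and carries no test. Across all 17 libraries, with time point means removed, levels of 11 of the 66 pairs of tested members had a Spearman correlation above 0.5, the highest being 0.83 for miR-466d-3p with miR-467b-5p and 0.78 for miR-467b-5p with miR-669h-5p. Over the 66 pairs the median was 0.08. These are descriptions over libraries that share depth and time point.

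miR-669m-3p, which 2 neighbouring Sfmbt2 hairpins can give, ran the other way. It stood at 192 to 548 CPM at the start-point, at 36.5, 92.8 and 62.6 CPM in end-point libraries 1, 3 and 7, and at 655, 1044, 211 and 152 CPM in libraries 2, 4, 5 and 6. The mean CPM was nearly the same at both time points, 337 ± 128 over 10 libraries and 322 ± 382 over 7 (SD). The TMM-scaled log2 fold change was 1.11 ± 0.60 (SE) and the edgeR adjusted p 0.156, and with library totals only it was 0.0038. That scaling moves the median of all small RNAs tested from -0.18 to -0.65, and relative to these medians the member differed by 1.29 and 0.65. Without the shallow libraries the TMM-scaled log2 fold change was 2.03 and called, with an edgeR adjusted p of 0.00159. That fit was not repeated on library totals. The 4 deeper end-point libraries averaged 515 CPM, beside 337 CPM at the start-point. Of these, libraries 2 and 4 lay above the start-point range, library 5 within it and library 6 below it.

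Among tested members not described so far, miR-669b-5p was at 250 to 816 CPM at the start-point and 46.3 to 804 CPM at the end-point, where 5 of 7 libraries lay below the lowest start-point library. Its log2 fold change was -0.47 ± 0.44 (SE) and the edgeR adjusted p 0.424. miR-669g was at 10.7 to 146 CPM and 0 to 125 CPM, and its log2 fold change of 0.93 had an edgeR adjusted p of 0.206. In the fits described it was called only without the shallow libraries, at 1.49 with an edgeR adjusted p of 0.0292. Yet the 4 deeper end-point libraries held 67.5 to 111 CPM of it, within the start-point range. With library totals only and all libraries, its log2 fold change was 0.33 rather than 0.93. miR-466i-3p was at 52.5 to 219 CPM and 0 to 155 CPM, and its log2 fold change of -0.40 had an edgeR adjusted p of 0.554. miR-466d-3p was at 23.3 to 576 CPM and 0 to 266 CPM, and its log2 fold change was -0.56 and the edgeR adjusted p 0.480. These 4 were not called with all libraries. End-point counts were low for miR-669g (0 to 13), miR-466i-3p (0 to 10) and miR-466d-3p (0 to 17).

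**Figure D4:**
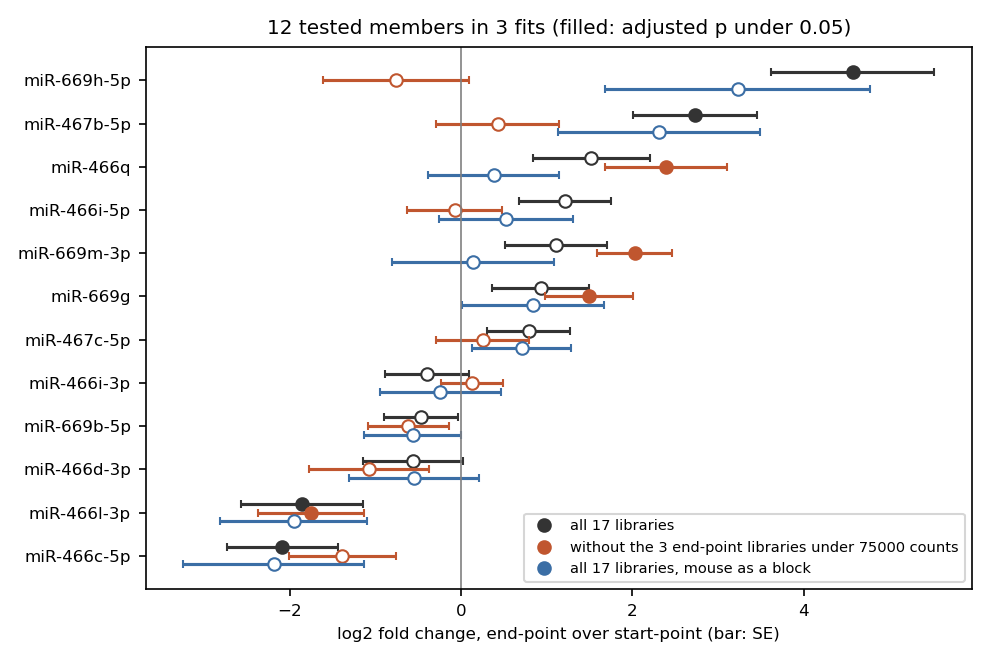
Log2 fold change with its SE (x axis) of the 12 tested members (rows) in edgeR with all 17 libraries, without the 3 end-point libraries under 75000 counts, and with the mouse as a block; filled points have an adjusted p under 0.05. With all libraries 4 members are filled, without the shallow ones 4 are, of which miR-466l-3p is the 1 in both, and with the block 0 are.

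The remaining 7 members did not pass the filter. miR-669c-5p was among them, at 2 to 9 counts in every start-point library (17.5 to 75.2 CPM), and at 0, 18.5, 712, 1010, 16.9, 953 and 689 CPM in end-point libraries 1 to 7. It was thus above every start-point library in 4 end-point libraries, 2 shallow and 2 deeper, and at or below 18.5 CPM in the other 3. Tested without the filter, where 33.2% of 1487 small RNAs were called (16.9% higher), its log2 fold change was 4.01 ± 0.69 (SE) and the edgeR adjusted p 0.000143. miR-466d-5p was at 0 to 168 CPM at the start-point and at 237, 18.5, 61.9, 171, 169, 86.1 and 532 CPM at the end-point, higher in 6 of 6 mice. Its counts were low, 0 to 30 at the start-point and 2 to 34 at the end-point. In mouse 3 it had 6 counts at the start-point and 2 in the shallow end-point library. Without the filter its log2 fold change was 2.27 ± 0.70 (SE) and the edgeR adjusted p 0.0146. Both were singled out after their values were seen. The other 5 were not called without the filter: miR-669n was at 13.5 to 195 CPM at the start-point and at 0 in 4 of 7 end-point libraries, and miR-467a-5p, miR-467d-5p, miR-467e-5p and miR-466n-3p stayed at 16 counts or fewer in every library. For these 4 a difference was not detectable at this depth.

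The arms could be compared within a hairpin for miR-466d and miR-466i, the only precursors with both arms listed. For miR-466d the 5p arm held 23.7 ± 22.1% (SD) of the counts of both arms over the 10 start-point libraries and 68.0 ± 25.4% over the 7 end-point libraries. Start-point libraries ran from 0 to 69.8% and end-point libraries from 25.0 to 100%, so the ranges overlapped. The counts behind each share were small, 5 to 78 at the start-point and 3 to 51 at the end-point. In end-point library 7, with 34 of 51 counts, the 95% Wilson interval of 66.7% was 53.0 to 78.0%, and in start-point library 8, with 6 of 78, that of 7.69% was 3.57 to 15.8%. For miR-466i the 5p arm held 70.4 ± 13.4% over the start-point libraries (SD) and 73.8 ± 25.3% over the end-point libraries. In the 3 shallow end-point libraries it held 92.9 to 100%, above all start-point libraries (40.9 to 87.2%), and in the 4 deeper ones 35.7 to 81.5%.

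**Figure D5:**
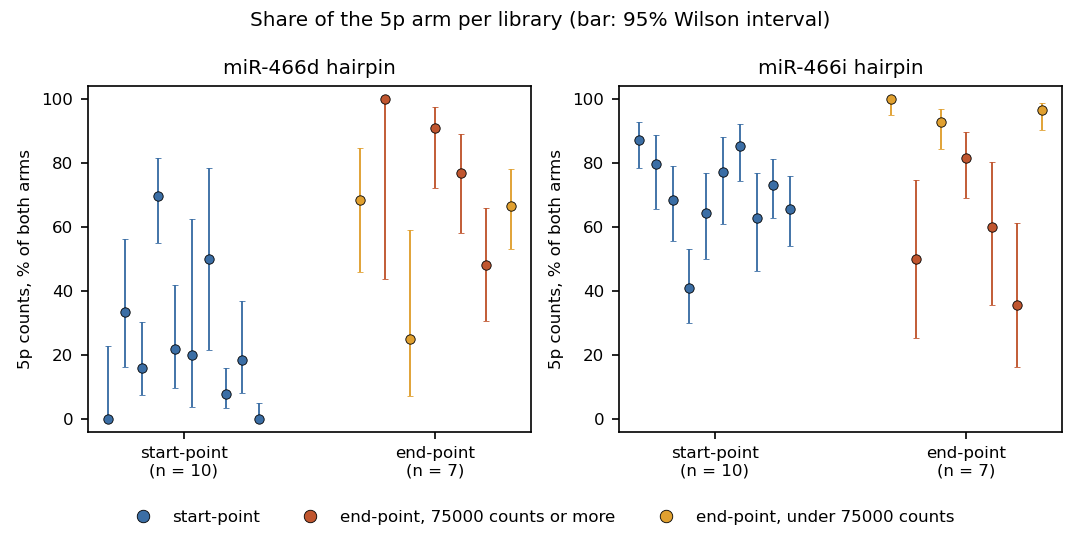
Counts of the 5p arm as a percent of both arms of the miR-466d and miR-466i hairpins per library, with 95% Wilson intervals that cover counting error only. For miR-466d the start-point mean is 23.7% and the end-point mean 68.0% with overlapping points, and for miR-466i the 3 shallow libraries are highest.

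Over whole families, 5p members held 57.2 ± 11.3% (SD) of the arm-named miR-466 counts over the 10 start-point libraries and 73.0 ± 17.9% over the 7 end-point libraries. The end-point shares were 81.8 to 93.6% in the shallow libraries and 44.2 to 83.5% in the deeper ones, and the difference of 15.8 percentage points between time points was 5.26 without the shallow libraries. For miR-669 the shares were 60.1 ± 9.30% and 71.3 ± 33.0%, and at the end-point they split into 98.3 to 98.6% in the shallow libraries and 14.5 to 86.9% in the deeper ones. The only 3p member listed for miR-669 is miR-669m-3p, so this share sets miR-669h-5p, miR-669b-5p and miR-669c-5p against it. The end-point minus start-point difference of 11.2 percentage points turned to -9.22 without the shallow libraries and to -1.39 with only the members that passed the filter. All 5 miR-467 members are 5p arms, so no arm comparison was possible there.

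Female and male libraries were compared with time point as a covariate. None of the 12 tested members was called in edgeR, nor was any of the 1270 small RNAs (0%), while 2 of the 12 and 131 of the 1270 (10.3%) had an unadjusted p under 0.05. The DESeq2 Wald test called 0 members too. The smallest p was that of miR-466d-3p, at 1.46 ± 0.53 (SE) on the log2 scale for female over male, where it had an edgeR adjusted p of 0.361. It averaged 99.2 ± 64.9 CPM (SD) over 7 male and 419 ± 219 CPM over 3 female start-point libraries. At the end-point the averages were 72.6 ± 75.8 CPM over 5 male and 179 ± 123 CPM over 2 female libraries.

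No listed miRNA of another name has its RefSeq gene inside Sfmbt2. A different cluster of placenta and embryonic stem cells, miR-290 to miR-295, had 12 rows, of which 9 were tested. Of these 9, 3 were called higher and 2 lower (55.6%, beside 33.7% of all small RNAs tested). Their median log2 fold change was -0.28. In this cluster miR-294-3p rose by 3.27 ± 0.52 (SE) with an edgeR adjusted p of 8.56e-05, and miR-293-5p fell by 1.94 on the log2 scale with 0.0219. The imprinted cluster between Dlk1 and Dio3 had 76 rows and 59 tested, with 12 called higher and 9 lower (35.6%) and a median log2 fold change of -0.18. All 3 clusters thus held members called in each direction, as did the whole table.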

How the data were processed

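The authors deposited raw counts per small RNA and library as whole numbers. The submitters' processing notes name GRCm38 and bcl2fastq, while the aligner, the counting tool and the handling of reads that match several miRNAs are not given in the sources used here. Per the labels' protocols, the library kit carries unique molecular identifiers; whether they were applied to the deposited counts is not stated. Counts of near-identical members therefore carry the uncertainty of read assignment. The time point in each label set the group. Except for end-point libraries 1 and 2, libraries of a time point come from different mice per the labels; p-values measure the spread between these libraries.

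Differences were tested with edgeR 4.0.16 in R 4.3.3 (glmQLFit with legacy = FALSE, TMM factors, filterByExpr, Benjamini-Hochberg over all small RNAs tested), without a block. SEs are the log2 fold change divided by the root of the F statistic. DESeq2 1.42.0 was an alternative. When libraries were left out, the tested set was kept. The labels give each library its mouse, which pairs the libraries; the 7 same-mouse pairs had correlations of deviations from group means from -0.07 to 0.26. Scripts were tested on simulated data. Members named were the 2 most abundant per family, the called ones, the 3 most abundant uncalled, and those outside Sfmbt2; the remaining ones were added to account for every member. Members and lists were chosen with earlier results of these data known. A planned fit that sums members sharing a seed was not run, because sequences matched for 3 of 19 members.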

Additional observations from a re-analysis of the deposited data

Results flagged for a closer look

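Single libraries lay far from the others of their group in 14 of 48 groups of values checked, where chance flags about 1 in 20 if values are normally distributed, which low counts such as these need not be. Start-point library 10 was highest in miR-466q (4606 CPM, the other 9 at 548 to 2117), in the miR-466 family sum (5947 CPM, the others at 1205 to 2636), in miR-467a-5p (115 CPM) and in miR-669h-5p (245 CPM). End-point library 4 was highest in miR-466q (9625 CPM, the others at 271 to 1083) and in the miR-466 family sum (10301 CPM, the others at 556 to 3496). End-point library 7 was highest in miR-466d-5p (532 CPM), miR-466l-3p (78.3 CPM) and miR-467e-5p (78.3 CPM). Start-point library 4 was highest in miR-466d-5p (168 CPM) and miR-467e-5p (78.6 CPM). End-point library 5 was highest in miR-466n-3p (84.4 CPM), library 1 in miR-467d-5p (110 CPM) and library 3 in miR-669n (92.8 CPM). The last 2 of these are 6 and 3 counts in shallow libraries.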

How the results depend on the processing

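Of the 12 tested members, miR-466c-5p, miR-467b-5p and miR-669h-5p were called in all 17 fits that left out 1 library each, and the number called ran from 3 to 5 over these fits (2 to 3 higher, 1 to 2 lower; 0 for sex). With mouse identity as a replicate block, 0 members were called, 0 higher and 0 lower, also with the second library of mouse 1 left out. In male libraries only, 1 was called, higher, and 0 lower. Without the low-count filter 4 were called higher. Without the libraries under 75000 counts 1 was called lower, and with the filter set again on the remaining libraries, an alternative chosen after seeing the data, 4 were called higher and 1 lower. Shares over all small RNAs are given above for the main fits, the block, the fit without the shallow libraries and the fit without the filter. The other counts of called members, such as that in males, have no such share beside them and cannot be set against a background.

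Directions that turned were those of miR-466i-3p (0.13, and 0.086 with the filter set again), miR-466i-5p (-0.077 and -0.13) and miR-669h-5p (-0.76 and -0.81) without the libraries under 75000 counts, of miR-466q in the DESeq2 Wald test (-0.38) and without end-point library 4 (-0.40, the lowest of a range up to 1.90 over the fits without 1 library), and of miR-669m-3p with the replicate block and the second library of mouse 1 left out (-0.78), all as log2 fold changes. The causes were not tested. DESeq2-style size factors, library totals only and summing the libraries of mouse 1 left the same 4 members called. Family differences and 5p shares moved by less than 1 SD in every alternative, but some turned. Without the libraries under 75000 counts the miR-467 family difference, on library totals, was -1.11. The difference of the miR-669 5p share was -9.22 percentage points without these libraries, and -1.39 with filtered members only. The miR-466 family difference, near 0, took either sign, from -0.74 (members inside Sfmbt2, chosen after seeing the data) to 0.50 (male libraries). Depth limits miR-466c-5p, miR-466l-3p, miR-669n, miR-466n-3p, miR-467a-5p, miR-467d-5p and miR-467e-5p, which had few counts at the end-point. It also limits miR-466i-3p, miR-669g and miR-466d-3p, with at most 10, 13 and 17 counts in any end-point library.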
